A study of Oryza sativa with 9 samples.

Results

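The genes described here are 10 loci of rice (Oryza sativa) that encode enzymes of diterpenoid phytoalexin synthesis. They were listed by pathway and position, and no measured value enters the rule, although earlier results of these data were known when they were chosen. The momilactone cluster on chromosome 4 gave 6 loci: CPS4 (LOC_Os04g09900), KSL4 (LOC_Os04g10060), CYP99A2 (LOC_Os04g10160), CYP99A3 (LOC_Os04g09920), MAS1 (LOC_Os04g10000) and MAS2 (LOC_Os04g10010). The phytocassane cluster on chromosome 2 gave 4 loci: CPS2 (LOC_Os02g36210), KSL7 (LOC_Os02g36140), CYP76M7 (LOC_Os02g36110) and CYP71Z7 (LOC_Os02g36190). They are 10 of the 57931 features in the expression table, and all 10 had a mean of at least 0.5 FPKM, a fragment count scaled by transcript length and library size, in every pair of groups compared.

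Momilactones and phytocassanes are antimicrobial compounds that rice makes upon attack, and momilactones are also released from rice roots, where they inhibit the growth of neighbouring plants. Both arise from geranylgeranyl diphosphate (GGPP), the plastid precursor that gibberellins share. A copalyl diphosphate synthase (CPS) and a kaurene synthase-like cyclase (KSL) close the rings, and cytochromes P450 (CYP) and a short-chain dehydrogenase then oxidise the hydrocarbon. In rice the genes for these steps lie near each other in clusters.

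Root RNA was sequenced from 9 libraries, 3 per group, harvested a month after planting. The groups were R1, labelled as common rice of the cultivar Normal_Rice_R1, in fresh water (R1 FW), sea rice 86, labelled as salt-water rice of the cultivar Sea_Rice_86, in fresh water (SR86 FW), and sea rice 86 in salt water (SR86 SW). R1 was in fresh water only, so there is no measure of the response to salt water in R1, and each strain is 1 cultivar. The labels give both cultivars as japonica, while the study describes R1 as a japonica and indica hybrid and SR86 as an indica, and reads of both were mapped to 1 reference transcript set. Libraries are named by group and replicate, for example SR86 FW1, and values given 3 at a time are in the order of the replicates.

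The libraries differed in depth by up to a factor of 2.497, from SR86 FW1 to SR86 SW3, as estimated from the lowest nonzero values. Across genes, pairs of R1 FW libraries correlated at 0.983 to 0.994, pairs of SR86 FW libraries at 0.926 to 0.957 and pairs of SR86 SW libraries at 0.943 to 0.965 (Pearson's r of log2(FPKM + 0.5)). The FPKM of 5 root marker genes summed to 574 to 644 for R1 FW, 318 to 1118 for SR86 FW and 866 to 1707 for SR86 SW, so root marker RNA was present in every library. The 7 leaf photosynthesis genes measured of 8 listed summed to 6.31 to 10.3 FPKM for R1 FW, 10.5 to 68.1 for SR86 FW and 6.24 to 19.6 for SR86 SW. The sum of 68.1 was in SR86 FW1. The chlorophyll-binding protein gene LOC_Os01g41710 reached 26.15 FPKM there, beside 2.12 to 2.33 in R1 FW. Another, LOC_Os01g52240, reached 18.2 FPKM and was at 0 in all R1 FW libraries. The photosystem gene PSBO was at 2.43 FPKM in SR86 FW1, beside 1.49 to 1.77 in R1 FW.

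All 10 loci were expressed in all 9 libraries, and their levels moved together from library to library. The lowest value of any member was 3.20 FPKM, for KSL4 in SR86 FW1, and the highest was 227 FPKM, for CYP99A2 in SR86 SW3. In R1 FW the levels were similar among replicates, with the highest library 1.31 to 2.00 times the lowest. In SR86 FW the highest library was 3.93 to 10.2 times the lowest, and in SR86 SW 2.12 to 5.40 times. SR86 FW1 was the lowest and SR86 FW3 the highest SR86 FW library for all 10 members, and SR86 SW3 was the highest SR86 SW library for all 10. R1 FW2 was the lowest and R1 FW3 the highest R1 FW library for all 10 as well. SR86 FW1, the lowest for every member, is also the library with the most leaf marker RNA and the lowest root marker sum. Single root markers also differed between groups. RCc3 averaged 51.5 FPKM in R1 FW and 532 in SR86 SW, and NRT2.1 averaged 14.3 in SR86 FW and 0.807 in SR86 SW. Between the waters 3 of the 5 root markers had a higher mean in SR86 SW and 2 a lower one. SR86 SW3, the highest of its group for all 10, had the lowest root marker sum of that group (866 FPKM). RCc3 was at 134 FPKM there, beside 769 in SR86 SW1 and 693 in SR86 SW2. SR86 FW2 had the highest sum of its group (1118 FPKM) and was the highest for 0 members. The part of these differences in the members' levels was not tested, and in bulk tissue fewer cells of a type and less RNA per cell cannot be told apart.

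**Figure D1:**
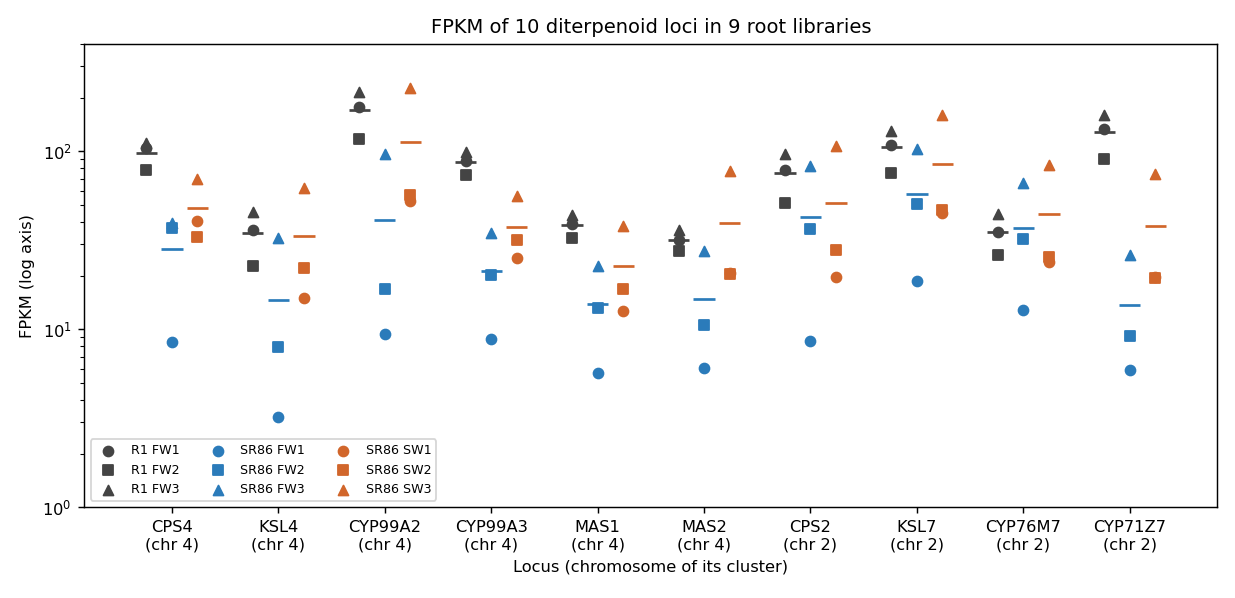
FPKM of the 10 loci (log axis) in each library, with the group by colour, the replicate number by symbol and the group mean as a line (n = 3 per group). The R1 FW points lie close together, while SR86 FW1 is the lowest point of its group for every locus and SR86 FW3 and SR86 SW3 are the highest of theirs.

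On chromosome 4, CPS4 makes syn-copalyl diphosphate, the entry step to the momilactones. Its levels were 104, 78.7 and 111 FPKM in R1 FW, 8.49, 36.8 and 39.5 in SR86 FW, and 40.6, 33.1 and 70.2 in SR86 SW. All 6 SR86 libraries lay below all 3 R1 FW libraries. KSL4, which turns this product into the pimaradiene skeleton, had 36.0, 22.6 and 45.3 FPKM in R1 FW, 3.20, 7.93 and 32.6 in SR86 FW, and 14.99, 22.1 and 62.5 in SR86 SW. Here the groups overlapped, since SR86 FW3 and SR86 SW3 were above R1 FW2.

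CYP99A2 and CYP99A3 are P450 genes of 1 subfamily that act on the pimaradiene. CYP99A2 had 178, 117 and 214 FPKM in R1 FW, 9.45, 16.9 and 96.7 in SR86 FW, and 52.6, 56.5 and 227 in SR86 SW. Its SR86 FW libraries were all below those of R1 FW, and SR86 SW3 was the highest of the 9 libraries. CYP99A3 had 87.8, 73.4 and 98.3 FPKM in R1 FW, 8.82, 20.1 and 34.7 in SR86 FW, and 25.2, 31.5 and 55.8 in SR86 SW. For this gene every SR86 library was below every R1 FW library.

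MAS1 and MAS2 are adjacent short-chain dehydrogenase genes, and the enzyme of this kind makes momilactone A. MAS1 had 39.2, 32.4 and 43.9 FPKM in R1 FW, 5.67, 13.2 and 22.8 in SR86 FW, and 12.7, 16.8 and 38.2 in SR86 SW. MAS2 had 31.7, 27.6 and 36.2 FPKM in R1 FW, 6.03, 10.6 and 27.6 in SR86 FW, and 20.6, 20.5 and 77.1 in SR86 SW. MAS1 did not overlap between R1 FW and SR86 FW, whereas MAS2 did, by the near-equal values of R1 FW2 and SR86 FW3.

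On chromosome 2, CPS2 makes ent-copalyl diphosphate for phytoalexins. It had 78.8, 51.2 and 96.7 FPKM in R1 FW, 8.64, 36.4 and 82.6 in SR86 FW, and 19.7, 27.9 and 106 in SR86 SW. KSL7, the cassadiene synthase of the phytocassane route, had 109, 75.6 and 130 FPKM in R1 FW, 18.8, 50.4 and 103 in SR86 FW, and 45.2, 46.9 and 161 in SR86 SW. For both genes the groups overlapped, with SR86 SW3 above all R1 FW libraries.

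CYP76M7 and CYP71Z7 hydroxylate the cassadiene. CYP76M7 had 35.4, 26.0 and 44.7 FPKM in R1 FW, 12.9, 32.3 and 66.2 in SR86 FW, and 23.8, 25.3 and 83.9 in SR86 SW. CYP71Z7 had 134, 90.2 and 160 FPKM in R1 FW, 5.88, 9.11 and 26.0 in SR86 FW, and 19.6, 19.5 and 74.2 in SR86 SW. CYP76M7 overlapped between the groups on all sides, and CYP71Z7 was lower in each of the 6 SR86 libraries than in any R1 FW library.

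The first comparison asks how the roots of the 2 strains differ in fresh water. Of the 10 loci, 5 were lower in SR86 FW than in R1 FW: CPS4, CYP99A2, CYP99A3 and MAS1 of the 6 on chromosome 4, and CYP71Z7 of the 4 on chromosome 2. A call needed at least a 2-fold difference together with an adjusted p (Benjamini-Hochberg) under 0.05 in the limma fit across all 23168 genes tested, where 14.1% of genes were called in either direction and 7.22% were called lower. On the log2 scale the means of all 10 loci were lower in SR86 FW, while the mean FPKM of CYP76M7 was 35.3 in R1 FW and 37.1 in SR86 FW. The median log2 fold change was -1.89 on chromosome 4 and -1.21 on chromosome 2, beside -0.03 over all genes tested. Without SR86 FW1, the library with the most leaf marker RNA, these medians were -1.23 and -0.46, and without SR86 FW3 that of chromosome 2 was -1.86. The 5 loci called were also the 5 whose libraries did not overlap, a pattern that 27.3% of all genes tested showed in this direction.

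CYP71Z7 had the largest difference, a log2 fold change of -3.41 ± 0.52 (SE, n = 3 per group, limma adjusted p = 0.0062). CYP99A3 differed by -2.19 ± 0.45 (limma adjusted p = 0.017), CPS4 by -2.03 ± 0.57 (adjusted p = 0.039) and MAS1 by -1.63 ± 0.46 (adjusted p = 0.04). CYP99A2 differed by -2.69 ± 0.80, with a limma adjusted p of 0.048. The other 5 did not pass the test. Their log2 fold changes were -1.74 ± 0.76 for KSL4 (limma adjusted p = 0.13), -1.34 ± 0.50 for MAS2 (adjusted p = 0.084), -1.28 ± 0.76 for CPS2 (adjusted p = 0.23) and -1.14 ± 0.58 for KSL7 (adjusted p = 0.18). CYP76M7 stood at -0.18 ± 0.56, with a limma adjusted p of 0.82.

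CYP71Z7 was called whichever library was left out, with log2 fold changes from -4.00 to -2.97. The count of 5 fell to 1 without R1 FW1 or without R1 FW3 and to 2 without R1 FW2 or without SR86 FW2, was 4 without SR86 FW1, and rose to 9 without SR86 FW3. The calls over all genes tested moved as well. They were 1646, 1853, 2500, 2496, 3044 and 4761 in the same order, beside 3261 with all libraries. CYP99A3 was lost without R1 FW1 (adjusted p = 0.068) or R1 FW3 (limma adjusted p = 0.075).

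The second comparison asks how salt water changed the roots of SR86. None of the 10 loci was called (0 of 10, beside 12.7% of the 23718 genes tested and 8.41% called higher), 0 of 10 had an unadjusted p under 0.05 in the limma fit, and all 10 overlapped between the groups, where 44.9% of genes did not. The means of all 10 were higher in SR86 SW than in SR86 FW. On chromosome 4 the log2 fold changes ran from 0.72 ± 0.57 for MAS1 (limma adjusted p = 0.38) to 1.78 ± 0.92 for CYP99A2 (adjusted p = 0.19), with a median of 1.16. On chromosome 2 they ran from 0.28 ± 0.69 for CYP76M7 (limma adjusted p = 0.78) to 1.40 ± 0.68 for CYP71Z7 (adjusted p = 0.17), with a median of 0.48. The median over all genes tested was 0.17, and it fell to 0.02 after scaling by median-ratio size factors. With that scaling the medians of the members were 0.99 on chromosome 4 and 0.32 on chromosome 2.

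The SE of these fold changes was 0.51 to 0.92 on the log2 scale. In data simulated for this comparison on 23718 genes, 49% of genes changed by 1.5 (log2) and 76% of those changed by 2.5 were called. Only 100 genes of each size, drawn at random, were changed there, whereas 3012 genes were called in the data. The adjusted p was therefore harder to reach in the simulation, and its shares are not the chance of a call for a member. Without SR86 FW3, 1 locus was called, CYP99A2, with a log2 fold change of 2.75 and a limma adjusted p of 0.037. Leaving out replicate 3 of both groups, the libraries highest for every member, gave 4 calls, KSL4, CYP99A2, MAS2 and CYP71Z7. Calls over the whole table rose too, to 3822 of 23741 genes without SR86 FW3 and 4659 of 23688 without replicate 3 of both groups. In the latter fit 3421 genes were called higher, beside 1995 with all libraries. CPS2, KSL7 and CYP76M7 turned to negative values without SR86 FW1 or without SR86 SW3, where the chromosome 2 median was -0.18 and -0.15. The chromosome 4 median was 0.58 without SR86 FW1 and 0.69 without SR86 SW3.

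The third comparison sets SR86 in salt water against R1 in fresh water, and strain and water cannot be told apart in it. It shares the SR86 SW and R1 FW libraries with the other comparisons. Here 3 of the 10 loci were called, all lower in SR86 SW, where 19.5% of the 23800 genes tested were called in either direction and 7.29% were called lower. They were CYP71Z7 (log2 fold change -2.01 ± 0.54, limma adjusted p = 0.029), CYP99A3 (-1.27 ± 0.29, adjusted p = 0.017) and CPS4 (-1.08 ± 0.29, adjusted p = 0.028). The same 3 had no overlap between the groups, as had 20.7% of all genes tested in this direction. MAS2 and CYP76M7 stood at 0.02 ± 0.51 and 0.10 ± 0.50, and the remaining 5 loci lay between -0.91 and -0.27. The count of 3 was 0 without R1 FW1, R1 FW3 or SR86 SW2, 1 without SR86 SW1, 2 without R1 FW2 and 7 without SR86 SW3. Calls over all genes tested were 3293, 3516, 3969, 3856, 3888 and 5733 in the same order, beside 4644 with all libraries.

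**Figure D2:**
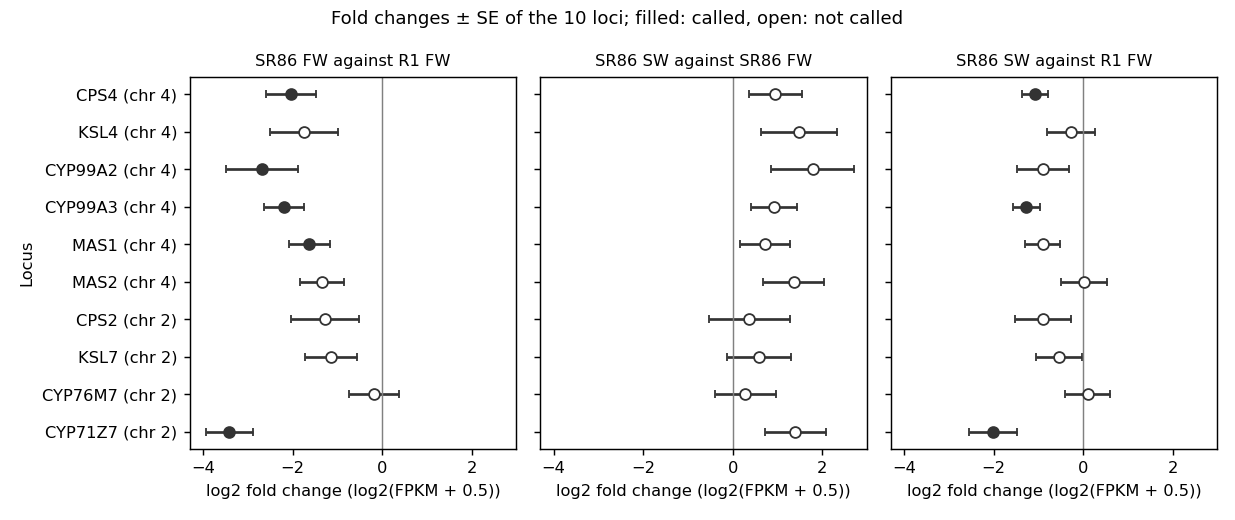
Log2 fold changes with standard errors of the 10 loci on the log2(FPKM + 0.5) scale in the 3 comparisons (limma, n = 3 per group); filled points passed the threshold. In SR86 FW against R1 FW all 10 are below 0 and 5 are filled, in SR86 SW against SR86 FW all 10 are above 0 with 0 filled, and in SR86 SW against R1 FW 3 are filled.

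Although levels varied among SR86 libraries, the ratio of CYP76M7 to KSL7 varied little within a group and differed between groups. A ratio of 2 genes in 1 library does not depend on how that library was scaled. This ratio of FPKM values was 0.326, 0.343 and 0.342 in the R1 FW libraries, 0.687, 0.641 and 0.642 in SR86 FW, and 0.527, 0.539 and 0.522 in SR86 SW. KSL7 itself ranged from 18.8 to 103 FPKM over the SR86 FW libraries that gave this narrow range. The 3 groups did not overlap, with R1 FW lowest, SR86 SW between and SR86 FW highest.

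The ratio of CYP71Z7 to KSL7 ran the other way. It was 1.23, 1.19 and 1.23 in R1 FW, 0.313, 0.181 and 0.252 in SR86 FW, and 0.434, 0.416 and 0.462 in SR86 SW. Again no library of one group fell into the range of another. The ratio of CPS2 to KSL7, the genes of the ring-closing steps, overlapped between all 3 groups, running from 0.678 to 0.742 (R1 FW), 0.461 to 0.800 (SR86 FW) and 0.436 to 0.663 (SR86 SW).

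CYP76M8 (LOC_Os02g36070), a close relative of CYP76M7 in the same cluster that acts on several diterpenes, was above CYP76M7 in R1 and below it in SR86. The ratio of CYP76M8 to CYP76M7 ran from 2.02 to 2.30 for R1 FW, from 0.701 to 0.756 for SR86 FW and from 0.688 to 0.844 for SR86 SW. The summed FPKM of both was 85.5 to 135 for R1 FW, 22.6 to 113 for SR86 FW and 40.2 to 155 for SR86 SW. For this pair the sums overlapped where the ratios of the strains did not. These ratios were chosen after the values were seen.

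**Figure D3:**
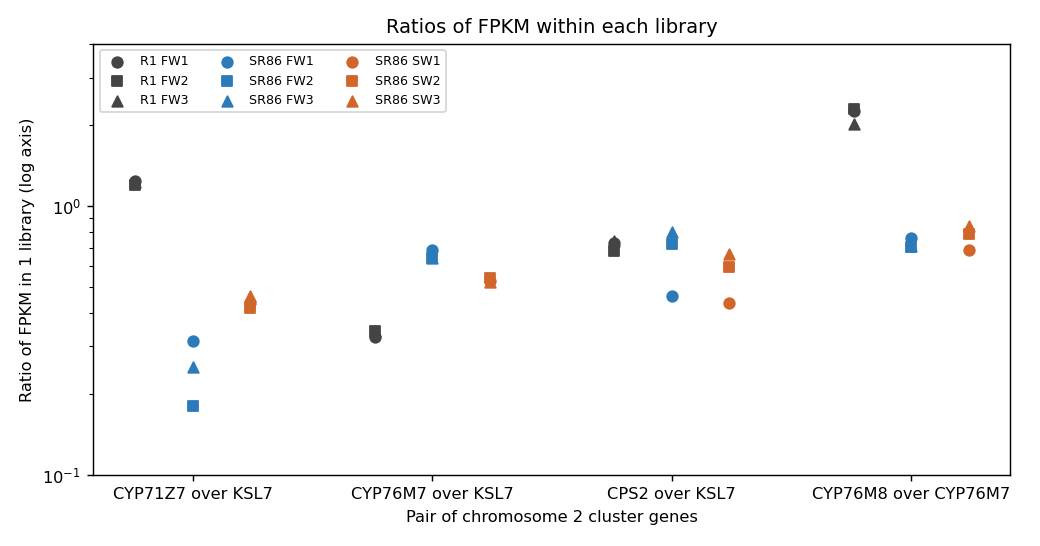
Ratio of the FPKM of 2 chromosome 2 genes within each library (log axis), with the group by colour and the replicate number by symbol. CYP71Z7 over KSL7 and CYP76M7 over KSL7 separate all 3 groups in opposite orders, CPS2 over KSL7 overlaps between groups, and CYP76M8 over CYP76M7 is above 2 in R1 FW and below 0.85 in both SR86 groups.

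The same was measured for every member as its log2 level relative to the mean of the other members of its cluster. CYP71Z7 stood at 0.96 ± 0.025 in R1 FW, -1.58 ± 0.49 in SR86 FW and -0.60 ± 0.11 in SR86 SW (mean ± SD, n = 3). CYP76M7 stood at -1.49 ± 0.065, 0.27 ± 0.13 and -0.24 ± 0.12. MAS2 stood at -1.15 ± 0.14 in R1 FW, -0.43 ± 0.26 in SR86 FW and -0.24 ± 0.30 in SR86 SW, above its R1 FW level in every SR86 library.

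Between SR86 FW and R1 FW, 4 of 10 members did not overlap in this relative level: CYP71Z7, CYP76M7, KSL7 and MAS2. Between SR86 SW and SR86 FW 2 members, CYP71Z7 and CYP76M7, did not overlap, and between SR86 SW and R1 FW 6 did not. No share over all genes was computed for this measure, which is defined against the cluster's own members, so these counts are a description. Over these 30 comparisons the exact two-sided permutation test of 3 against 3 libraries gives at best p = 0.1, so none could reach 0.05. Members of a cluster are measured against each other here, so a shift of 1 gene moves the relative level of the rest.

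MAS1 with MAS2, CYP99A2 with CYP99A3, CYP76M7 with CYP76M8 and CYP71Z7 with CYP71Z6 are related in sequence, so reads that fit more than 1 of them were divided by estimation. Unlike the sum of CYP76M7 and CYP76M8, the sums of the other pairs were lower in SR86 FW without overlap. In R1 FW and SR86 FW they were 90.3 to 160 and 6.42 to 28.2 FPKM for CYP71Z6 plus CYP71Z7. For MAS1 plus MAS2 they were 59.99 to 80.1 and 11.7 to 50.4, and for CYP99A2 plus CYP99A3 191 to 312 and 18.3 to 131. In SR86 SW the MAS and CYP99A sums overlapped those of R1 FW, and the CYP71Z sum did not. A difference in expression between the strains and a difference in how well their sequences match the reference cannot be told apart in these values. The ratio changes of CYP76M7 and CYP71Z7 between the waters compare libraries of 1 cultivar, and whether the division of shared reads enters them was not tested.

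The cluster neighbours that are not among the 10 were read in the same way. Of 6 further genes of the chromosome 2 cluster, 4 passed the filter in the comparison of strains in fresh water, 1 was called lower and 1 was called higher. The lower one was CYP76M8, with 79.7, 59.6 and 90.3 FPKM in R1 FW and 9.75, 22.6 and 47.2 in SR86 FW (log2 fold change -1.76 ± 0.53, limma adjusted p = 0.048). The higher one was CYP71Z6 (LOC_Os02g36150), the relative of CYP71Z7 that acts in another diterpenoid route, with 0.06, 0.11 and 0.09 FPKM in R1 FW and 0.54, 1.04 and 2.20 in SR86 FW (log2 fold change 1.47 ± 0.35, adjusted p = 0.026). Its highest value is far below the lowest CYP71Z7 value of 5.88 FPKM. CYP76M8 was not called without R1 FW1, R1 FW2, R1 FW3, SR86 FW1 or SR86 FW2, where the limma adjusted p was 0.057 to 0.15, and CYP71Z6 was called only without SR86 FW1 among the 5 libraries whose removal left it above the filter.

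CYP76M5 and CYP76M6, P450 genes of the same family, had 16.7 to 71.9 and 5.27 to 21.0 FPKM in SR86 FW, ranges that enclosed their 36.4 to 57.1 and 10.6 to 18.7 FPKM in R1 FW. KSL5 and KSL6, cyclase genes of the cluster, stayed under 0.5 FPKM in all libraries.

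Each cluster was a set of expressed genes among silent ones. From CPS4 to CYP99A2 the table holds 27 loci, of which 6 are the members. Of the other 21, 17 were at 0 FPKM in all 9 libraries and the highest value was 1.18 FPKM. From CYP76M5 to CYP76M6 it holds 25 loci, and the 15 that are neither members nor listed cluster genes all stayed under 0.5 FPKM. Of the 10 loci on each side of the chromosome 4 interval, 2 passed the filter and 0 of 2 were called in any comparison. Their adjusted p was 0.44 and 0.15 in SR86 FW against R1 FW by limma, and their log2 fold changes there were -0.16 ± 0.15 and 0.26 ± 0.12. Around the chromosome 2 interval 10 passed in that comparison, where 1 was called higher and 1 lower, the latter being LOC_Os02g36020 next to the cluster (2.93 FPKM on average in R1 FW and 0.023 in SR86 FW). There, 1 of 9 was called lower in SR86 SW against SR86 FW and 3 of 10 were called lower in SR86 SW against R1 FW.

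**Figure D4:**
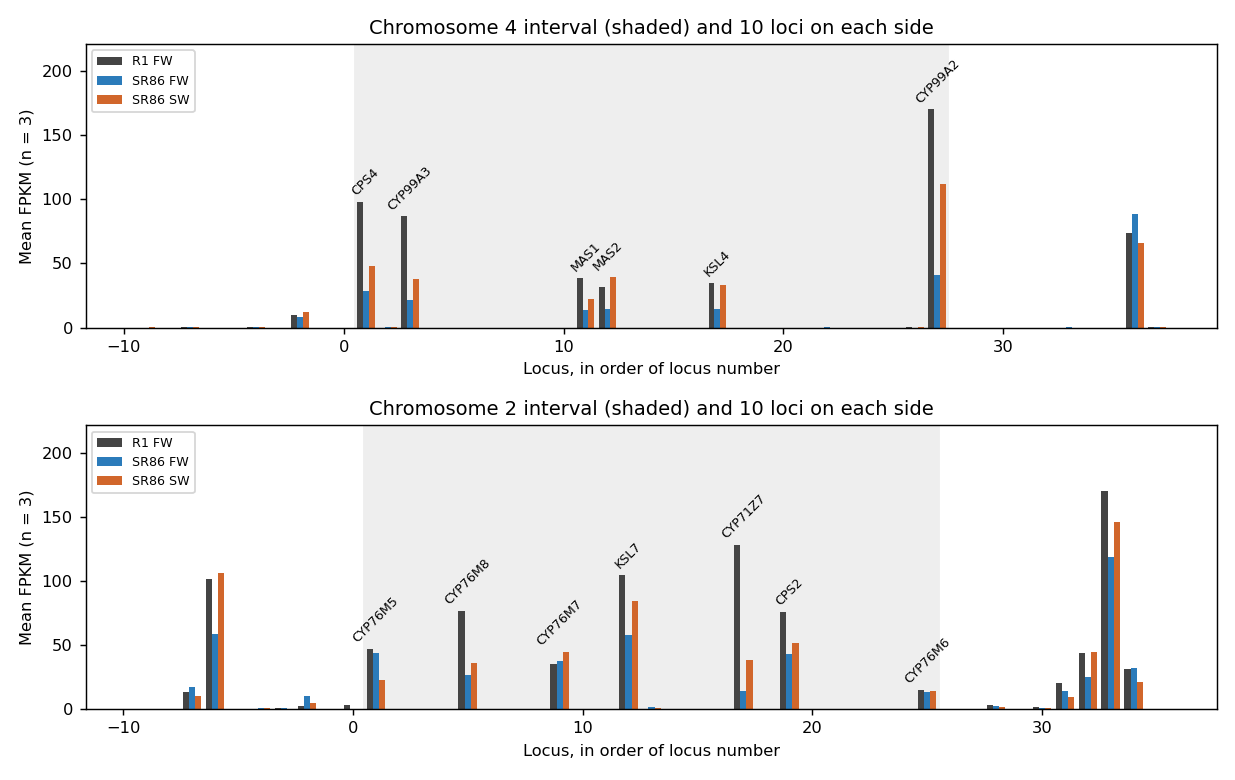
Mean FPKM per group (n = 3, bars from 0) of each locus in the order of the locus numbers, through both cluster intervals (shaded) and 10 loci on each side. Named cluster genes stand among loci near 0, and outside the shading expressed loci are 2 around the chromosome 4 interval and 10 around the chromosome 2 interval at a highest value of at least 1 FPKM.

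Of 3 listed labdane diterpenoid genes outside the clusters, 1 was called lower in SR86 FW and 2 were called lower in SR86 SW, each against R1 FW, and 0 were called between the waters (1 at an unadjusted p under 0.05 in the limma fit). KSL8 (LOC_Os11g28530), a cyclase of the oryzalexin S route that uses the product of CPS4, had 10.3, 7.04 and 10.3 FPKM in R1 FW, 0.13, 0.23 and 1.46 in SR86 FW, and 2.27, 1.87 and 6.09 in SR86 SW. It was called lower in SR86 FW (log2 fold change -3.31 ± 0.45, limma adjusted p = 0.0042) and in SR86 SW (-1.45 ± 0.40, adjusted p = 0.032), both against R1 FW. In fresh water that call held whichever library was left out, whereas in SR86 SW it held only without SR86 SW3. KSL10 (LOC_Os12g30824), the cyclase of other oryzalexins, had 45.9, 29.1 and 55.6 FPKM in R1 FW, 1.61, 3.72 and 27.4 in SR86 FW, and 3.06, 8.62 and 16.1 in SR86 SW. It was called lower in SR86 SW (-2.39 ± 0.56, adjusted p = 0.018), and in SR86 FW its limma adjusted p was 0.06. The call in SR86 SW was lost without R1 FW1 (adjusted p = 0.067) or R1 FW3 (limma adjusted p = 0.072).

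CYP701A8 (LOC_Os06g37300), a relative of the gibberellin enzyme kaurene oxidase that acts on phytoalexin precursors, had 71.2, 49.2 and 88.3 FPKM in R1 FW, 12.0, 22.3 and 55.8 in SR86 FW, and 27.4, 29.8 and 107 in SR86 SW. It was not called in any comparison (limma adjusted p = 0.086, 0.40 and 0.41). Its levels followed the chromosome 2 profile with r = 0.990 over the 9 libraries.

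The plastid route that supplies GGPP was compared through 11 listed genes of the methylerythritol phosphate (MEP) pathway and GGPP synthases. In SR86 FW against R1 FW 1 was called higher and 0 lower. That gene, LOC_Os01g14630, a GGPP synthase gene listed as GGPPS2, had 0 to 0.19 FPKM in R1 FW and 0.59 to 1.84 in SR86 FW. With a pseudocount of 1 or a filter at a mean of 1 FPKM, 0 genes of this list were called higher there. The same held without SR86 FW2, SR86 FW3, R1 FW1, R1 FW2 or R1 FW3. In SR86 SW against SR86 FW 0 of 11 were called, with 2 of 11 at an unadjusted p under 0.05, and in SR86 SW against R1 FW 1 was called, GGPPS2 again. The abundant GGPPS1 (LOC_Os07g39270) had 205, 151 and 242 FPKM in R1 FW, 51.8, 100 and 258 in SR86 FW, and 107, 136 and 265 in SR86 SW. DXS3 (LOC_Os07g09190), a synthase of the first MEP step, had 96.1, 68.2 and 114 FPKM in R1 FW, 15.5, 59.5 and 116 in SR86 FW, and 33.2, 42.6 and 101 in SR86 SW. For both, SR86 FW1 was the lowest of 9 libraries and SR86 FW3 (DXS3) or SR86 SW3 (GGPPS1) the highest, and the groups overlapped.

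Of 7 listed gibberellin genes 5 passed the filter in SR86 FW against R1 FW and 0 were called by limma, while 1 had an unadjusted p under 0.05. That gene was KS1, the kaurene synthase of gibberellin synthesis, with 3.91 to 4.67 FPKM in R1 FW and 1.42 to 3.05 in SR86 FW. Between the waters 0 of 6 were called by limma and 0 had an unadjusted p under 0.05. In SR86 SW against R1 FW 1 of 6 was called, GA20ox2 (LOC_Os01g66100), an oxidase of late gibberellin synthesis, with 0.04 to 0.17 FPKM in R1 FW and 0.62 to 3.40 in SR86 SW (log2 fold change 1.96, limma adjusted p = 0.019). Without SR86 SW2, R1 FW1, R1 FW2 or R1 FW3, 0 gibberellin genes were called in this comparison. Of 7 listed regulators of phytoalexin genes, 0 were called in any of the 3 comparisons, with 2, 0 and 1 at an unadjusted p under 0.05 in the limma fits. WRKY45, a defence transcription factor, had its highest value of 362 FPKM in SR86 FW1, the library where the clusters were lowest. WRKY62 (139 FPKM) and WRKY76 (57.4 FPKM) were also highest in that library, and the rest of the 7 were highest in other libraries. MYC2, a factor of jasmonate signalling, had 51.1 to 60.4 FPKM for R1 FW, 31.7 to 50.5 for SR86 FW and 44.1 to 55.3 for SR86 SW. Its r over the 9 libraries was 0.964 with the chromosome 4 profile and 0.902 with that of chromosome 2. With chromosome 4 the 7 regulators ran from -0.349 (WRKY45) to 0.964, with a median of -0.108. In SR86 FW against R1 FW, WRKY53 (log2 fold change -0.42, limma adjusted p = 0.037) and MYC2 (-0.55, adjusted p = 0.070) were lower, by less than 2-fold.

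**Figure D5:**
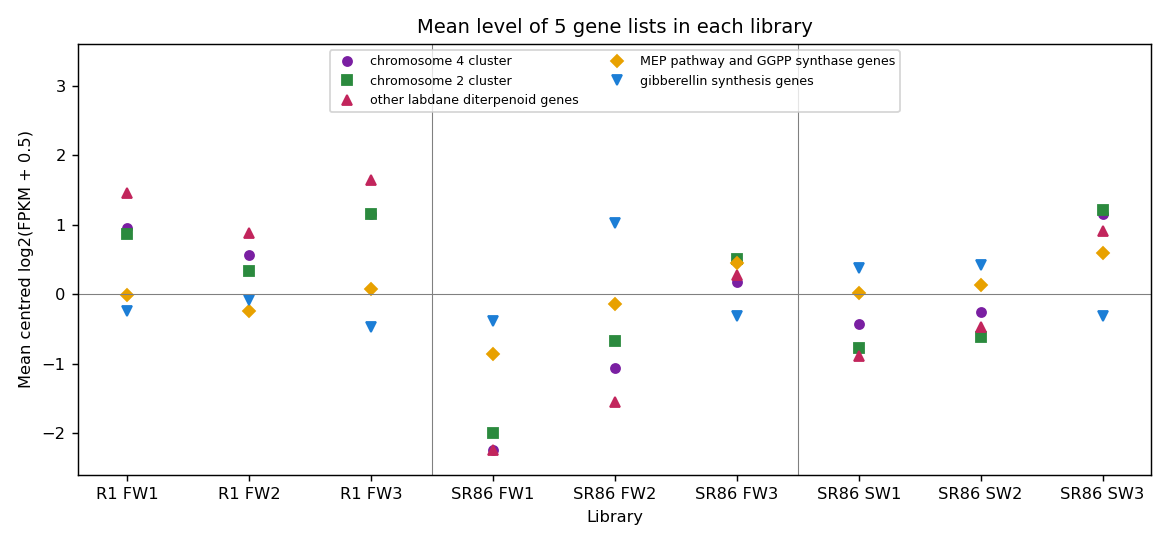
Mean of the centred log2(FPKM + 0.5) values of each list's genes in each library, one symbol per list. Both clusters and the other labdane diterpenoid genes are lowest in SR86 FW1 and highest in R1 FW3 or SR86 SW3, while the gibberellin genes are highest in SR86 FW2 and the MEP and GGPP synthase genes span a smaller range.

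As a description of how alike the members were, Pearson's r of log2(FPKM + 0.5) was computed over the 9 libraries. These differ in strain, water and depth, so differences between the groups enter these r values. The 15 pairs within chromosome 4 had r from 0.807 to 0.977, with a median of 0.936. The 6 pairs within chromosome 2 ran from 0.527 to 0.986, with CYP76M7 and CYP71Z7 as the least alike pair and a median of 0.867. The 24 pairs between the clusters ran from 0.571 to 0.978, with a median of 0.871.

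When each library was measured as its deviation from its group mean, the chromosome 2 pairs ran from 0.943 to 0.999, the pairs between clusters from 0.772 to 0.997 and the chromosome 4 pairs from 0.773 to 0.989. The mean centred log2 level of the chromosome 4 loci was -2.25, -1.07 and 0.17 in SR86 FW and that of the chromosome 2 loci was -1.996, -0.67 and 0.50. In SR86 SW they were -0.43, -0.25 and 1.15 for chromosome 4 and -0.77, -0.61 and 1.21 for chromosome 2.

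Of 23780 loci with a mean of at least 0.5 FPKM, 582 (2.45%) reached r of 0.9 with the chromosome 4 profile and 180 (0.757%) with that of chromosome 2. The 5 loci outside the lists that were most like chromosome 4 were LOC_Os02g27480, LOC_Os08g40570, LOC_Os06g06050, LOC_Os01g53000 and LOC_Os11g06020, with r from 0.988 to 0.990. Their ranges over the libraries were 0.64 to 1.24 on the log2 scale, beside 2.85 to 4.51 for the chromosome 4 members. The 5 most like chromosome 2 were LOC_Os05g45410, LOC_Os02g55330, LOC_Os01g02590, LOC_Os01g61400 and LOC_Os03g04930, with r from 0.974 to 0.986. Their ranges were 0.71 to 1.44, beside 2.66 to 4.65 for the chromosome 2 members.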

How the data were processed

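The authors sequenced stranded mRNA libraries of roots, trimmed the reads, used Bowtie2 to place them on MSU6 transcripts and RSEM to derive expression, dividing reads that fit several transcripts. The authors deposited FPKM values rounded to 2 decimals, 1 column for each of 9 libraries. TMM scaling and an edgeR likelihood ratio test are stated for the study, and whether the table carries that scaling was not given in the sources used here. Groups follow the labels, and 1 sentence of the study's methods assigns the waters to the strains the other way round. Whole reads were not recovered, so no count test was run. Relative depth was estimated from genes above 0 in at most 7 libraries, with values between 0.1 and 3 FPKM. In simulated data this step was within 0.05 (log2) in 94 of 96 estimates, and the other 2 were off by up to a factor of 2.

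For each comparison, limma 3.58.1 (R 4.3.3) was run with a variance trend on log2(FPKM + 0.5) of the genes whose mean in those 6 libraries was 0.5 FPKM or more, and p-values were adjusted over all genes tested by the Benjamini-Hochberg method. Calls needed an adjusted p under 0.05 and at least a 2-fold difference. On this scale the change of low genes is understated. In simulated data of SR86 FW against R1 FW on 23168 genes, 61% of genes changed by 1.5 (log2) and 78% of those changed by 2.5 were called. There 100 random genes of each size were changed, fewer than the 3261 called in the data, so these shares do not carry over to the members. The rest used Python 3.11.15 with scipy 1.17.1, numpy 2.4.6, pandas 2.3.3 and, for plots, matplotlib 3.10.9.

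The members and lists were chosen with earlier results of these data known. All 10 members are named, with the companion lists, and per cluster the 5 loci outside the lists with the highest Pearson's r to its mean centred profile. Of 47 companion loci 46 were in the table. The RefSeq gene table held 0 of the 57931 feature names, so gene names were paired with locus numbers from general knowledge, and no coordinates are given. Alternatives were other pseudocounts, filters and scalings, all libraries in 1 fit, no variance trend, a replicate block and each library left out. A search of the promoters for motifs was planned and not run, as no sequence was used here.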

Additional observations from a re-analysis of the deposited data

How the results depend on the processing

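Over all alternatives, 405 of the 480 log2 fold changes of the members kept their direction and their side of the threshold. In SR86 FW against R1 FW the count of 5 members called was 5 with pseudocounts of 0.1 and 1, a filter at a mean of 1 FPKM, quantile normalization, size factors or all 9 libraries in 1 fit, and 4 without the variance trend. It was 2 without a filter on low values and 6 without replicate 3 of both groups. Leaving out each library in turn gave 1 to 9 members and 1646 to 4761 genes, beside 3261 genes. In SR86 SW against SR86 FW the count of 0 members was 4 without replicate 3 of both groups, 4 with the replicate block below and 0 to 1 with each library left out, and stayed 0 under the other alternatives. The 3012 genes called there became 1804 without a filter, 4659 without replicate 3 of both groups and 60 to 3822 with each library left out, 60 being without SR86 SW1. In SR86 SW against R1 FW the 3 members became 1 with all 9 libraries in 1 fit, 6 without replicate 3 of both groups and 0 to 7 with each library left out. Of the genes called, the share higher in SR86 SW than in SR86 FW was 66.2%, and 46.0% after quantile normalization or 51.4% with size factors. Against R1 FW it was 62.6%, and 50.1% after quantile normalization.

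Signs turned for values near 0. In SR86 SW against R1 FW, MAS2 stood at -0.042 with quantile normalization, -0.095 with size factors and -0.52 without replicate 3 of both groups, and CYP76M7 at -0.0093 with size factors and -0.30 without replicate 3 of both groups. With each library left out MAS2 ran from -0.61 to 0.33, CYP76M7 from -0.48 to 0.42 and KSL4 from -0.86 to 0.16. In SR86 FW against R1 FW CYP76M7 ran from -0.74 to 0.42. In SR86 SW against SR86 FW the ranges were -0.49 to 1.102 for CPS2, -0.045 to 1.17 for KSL7, -0.32 to 0.84 for CYP76M7, -0.27 to 0.92 for CYP76M8 and -0.42 to 1.45 for KSL10. The cause of these changes was not tested.

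With replicate number as a block 6, 4 and 3 members were called in the 3 comparisons in the order above, with 3489, 2048 and 4822 genes. The samples share only a number, and no pairing is stated. Same-numbered deviations correlated at -0.06 to 0.28, and not every library correlated best with its own number. Replicate 3 did so in every pair of groups. Its r was 0.256 for R1 FW and SR86 FW, 0.281 for R1 FW and SR86 SW and 0.153 for SR86 FW and SR86 SW. What the libraries numbered 3 have in common was not tested. The values of low genes such as CYP71Z6 rest on few reads, the filter removes it in some fits, and FPKM without counts give no interval for them. The promoter motif search was not run.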
